A study of Mus musculus with 8 samples.

Results

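The histone genes described here are those of the large multigene clusters, named on the array as Hist1h, Hist2h, Hist3h or Hist4h followed by a protein class. A gene was included when a probe set was annotated to it alone, and the brightest such probe set by mean log2 value over all 8 arrays was used. This gave 28 histone genes among 30701 named genes measured. Of these, 22 belong to the Hist1 cluster on chromosome 13, 5 to the Hist2 cluster on chromosome 3 and 1 to the Hist3 cluster on chromosome 11. By protein class they comprised 5 linker histone H1 genes, 9 H2A, 9 H2B, 3 H3 and 2 H4 genes. RefSeq lists 26 of them as protein coding, Hist1h2aj as a pseudogene and Hist3h2bb-ps as a transcribed pseudogene. Most histone genes of these clusters could not be separated by the array: the 66 histone probe sets carried 69 histone symbols, and 37 of the probe sets were annotated to several genes.

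The colons came from Rag1-/- mice of the C57BL/6 strain, which make no mature T or B cells of their own and keep their innate cells. The control group was 5 mice injected with regulatory T cells (Treg-injected), whose colons were not inflamed. The inflamed group was 3 mice injected with naive T cells and killed once severe disease showed as weight loss and diarrhoea. Both groups therefore carried transferred T cells, and no untransferred Rag1-/- colon was compared. Transfer took place when the mice were 10 weeks old, with death 2 to 4 months afterwards, while the age given is 4 to 5 months. The sources differ on the sampled tissue, giving distal colon in one place and a strip from the cecum to the rectum in another. Every array was counted as 1 mouse. The question asked of the histone genes is which of them differ in severe colitis.

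Core histones H2A, H2B, H3 and H4 form the protein spool of the nucleosome, and linker histone H1 binds the DNA between nucleosomes. Replication-dependent histone genes are transcribed mainly in S phase, when new DNA must be packaged, and their transcription is organised around the coactivator NPAT in the histone locus body. Their mRNAs end in a conserved stem-loop in place of a poly(A) tail. The stem-loop binding protein SLBP and the U7 small nuclear RNA machinery form that end, and the mRNAs are degraded when DNA synthesis stops. Some H1, H2A and H2B genes can also give polyadenylated mRNA in cells that have left the cycle. The colon renews its epithelium from dividing crypt cells, so cycling cells are present without inflammation. The labelling kit used here copies RNA along the whole transcript.

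The promoters of 4 genes are shown because these genes carry the results or their contrast: Hist1h1b and Hist2h2ab rose, and Hist1h1c and Hist2h2bb, of the same classes or cluster, did not pass the test. The 200 bases before the annotated start are printed from RefSeq on build GRCm38.p6, in the direction of transcription, with chromosomal positions for each. Capitals mark 4 short motifs wherever a strand holds them. The CCAAT box was searched as CCAAT, and it appears as its reverse complement where the opposite strand holds it. The TATA box was searched as TATAAA, the octamer element of H2B promoters as ATTTGCAT, and the H1 box, an element of H1 promoters, as AAACACA.
Hist1h1b: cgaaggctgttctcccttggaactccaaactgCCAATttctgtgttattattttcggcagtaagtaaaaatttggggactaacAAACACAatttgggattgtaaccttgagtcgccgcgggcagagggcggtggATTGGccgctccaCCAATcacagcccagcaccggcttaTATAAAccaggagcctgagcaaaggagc
Hist1h1c: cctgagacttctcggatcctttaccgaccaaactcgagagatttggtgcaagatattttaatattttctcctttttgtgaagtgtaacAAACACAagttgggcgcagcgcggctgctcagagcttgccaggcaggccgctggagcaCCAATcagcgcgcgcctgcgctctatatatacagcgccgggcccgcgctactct
Hist2h2ab: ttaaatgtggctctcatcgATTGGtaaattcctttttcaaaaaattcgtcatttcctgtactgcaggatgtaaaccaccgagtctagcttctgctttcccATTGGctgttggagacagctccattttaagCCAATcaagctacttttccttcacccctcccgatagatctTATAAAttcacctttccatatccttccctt
Hist2h2bb: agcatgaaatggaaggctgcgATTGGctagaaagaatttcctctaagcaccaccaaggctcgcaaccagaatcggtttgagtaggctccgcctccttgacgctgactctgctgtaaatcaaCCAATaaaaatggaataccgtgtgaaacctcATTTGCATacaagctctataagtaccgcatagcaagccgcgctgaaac

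The Hist1h1b stretch lies at chr13:21780626-21780825 on the minus strand and that of Hist1h1c at chr13:23738607-23738806 on the plus strand. Those of Hist2h2ab and Hist2h2bb lie at chr3:96219685-96219884 and chr3:96269500-96269699, both on the plus strand. The promoter table held 24 of the 28 genes, and Hist1h2aj, Hist2h2be, Hist3h2bb-ps and Hist1h3f were not among them. Motifs were searched on both strands of the full 300-base windows, from 250 bases before to 50 after the start, with matches of different motifs free to overlap. CCAAT was found in 23 of the 24 windows, against 37.4% of all 32851 promoters in the table. TATAAA was found in 13 of 24, against 13.6% of all promoters, and the octamer ATTTGCAT in 7 of 24, against 1.74%. The H1 box AAACACA was found in 7 of 24, against 7.18%, and in 4 of the 5 H1 genes it lay 112 to 122 bases before the start. The promoters of Hist1h1b and Hist1h1c thus share the H1 box, 117 and 112 bases before the start, and a CCAAT, 53 and 54 bases before it. TATAAA lies 28 bases before the start of Hist1h1b, and these exact letters are not in the Hist1h1c window. Only exact matches were marked and counted. The printed Hist1h1c stretch holds the similar letters tatatata, and that of Hist2h2bb holds tataag, so neither is shown to lack a TATA box. Such matches describe the letters and were not tested as binding sites.

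The values were log2 intensities per probe set, and the median transcript cluster of each array stood at 4.81 to 4.91. A gene was called dim when its group mean lay under 4.88, the median of all transcript clusters over all arrays, in both groups; dim genes are near background and their differences are understated. This held for 10 of the 28 histone genes, among them all 3 H3 and both H4 genes, and for 36.1% of all genes. The median intronic control probe set stood at 4.92 to 5.11 on the arrays, above this limit. A gene that is not dim may thus still lie near background. Inflamed replicate 2 stood apart, with a Pearson's r of 0.987 and 0.986 across transcript clusters to inflamed replicates 1 and 3, which stood at 0.995 to each other. Epithelium was present in both groups: Epcam, an epithelial adhesion protein, lay between 12.19 and 12.29 in controls and between 12.20 and 12.28 in inflamed colon. This gene alone does not identify colon, and of the other epithelial markers Krt20 rose while Car1 and Slc26a3 fell.

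Hist1h1b and Hist2h2ab rose in inflamed colon and Hist2h2be fell, so 3 of 28 passed limma's test at an adjusted p under 0.05 (10.7%), against 13.1% of all genes. Of all genes 8.06% rose and 5.04% fell. At an unadjusted p under 0.05 there were 4 histone genes, or 14.3%, against 28.5% of all genes. The median difference of the 28 genes was 0.13 on the log2 scale, against -0.01 over all genes, and 19 of the 28 differences were positive, against 44.8% of all genes. Inflamed and control values did not overlap for 4 histone genes (14.3%), against 21.2% of all genes. The same 3 genes passed without inflamed replicate 2, and without inflamed replicate 1 Hist2h2ab alone passed. The median was 0.15 without inflamed replicate 2, 0.09 without inflamed replicate 1 and 0.06 without inflamed replicate 3, and it was 0.09 without control replicate 1 or 5. At an unadjusted p under 0.05 there were 10 histone genes (35.7%) without inflamed replicate 2, against 27.8% of all genes. Without inflamed replicate 1 there were 6 (21.4%, against 23.6%) and without inflamed replicate 3 there were 3 (10.7%, against 28.2%). In bulk tissue, fewer cells of a type and less RNA per cell cannot be told apart.

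**Figure D1:**
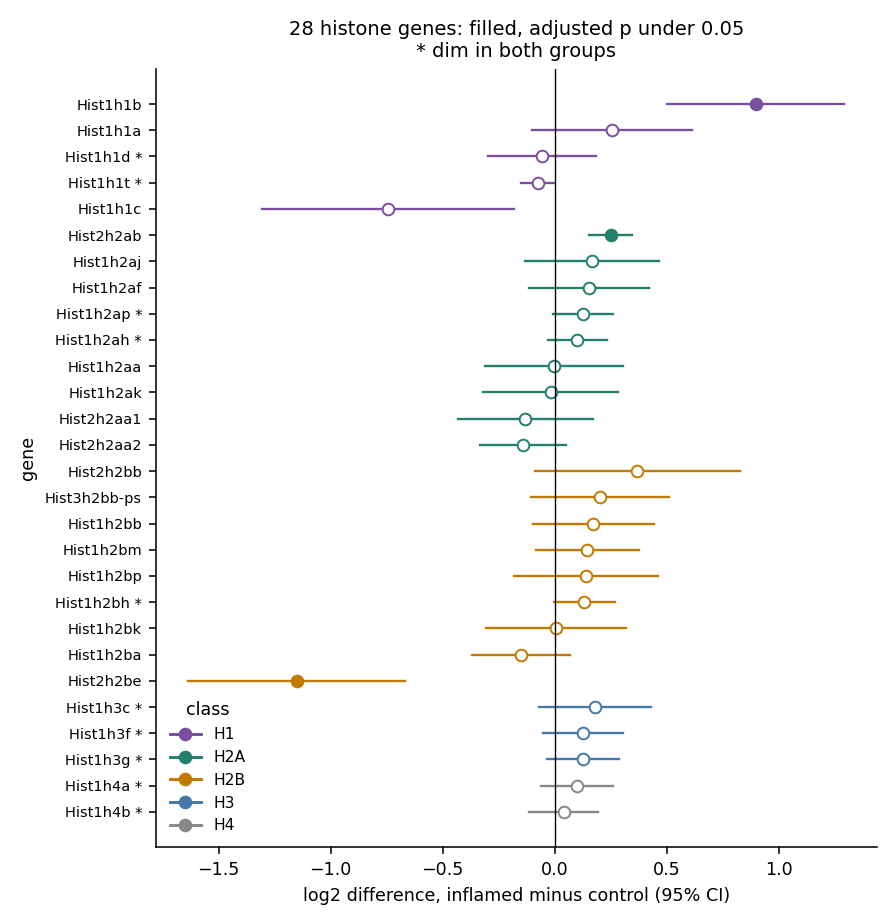
Log2 differences between 3 inflamed and 5 control colons for the 28 histone genes, with 95% confidence intervals from limma, coloured by protein class. Filled points passed an adjusted p under 0.05 and asterisks mark genes dim in both groups; Hist1h1b (0.90) and Hist2h2be (-1.15) lie farthest from 0 and most intervals include it.

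Among the H1 genes, Hist1h1b rose. It encodes the linker histone H1.5 (RefSeq symbol H1f5), one of the replication-dependent somatic subtypes. On the log2 scale it read 6.26, 6.57, 6.43, 6.33 and 5.84 in control replicates 1 to 5, and 7.41, 7.05 and 7.08 in inflamed replicates 1 to 3. Every inflamed value lay above every control value, and control replicate 5 was the lowest. The difference was 0.90 ± 0.17 (SE; 5 control and 3 inflamed arrays), a 1.86-fold higher level, with an adjusted p of 0.0148 by limma. Without inflamed replicate 1 it was 0.78, with an adjusted p of 0.0579, and over the 20 alternatives tried the adjusted p ran from 0.0070 to 0.197.

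Hist1h1c encodes H1.2 (H1f2), another somatic H1 subtype. It gave 8.93, 8.93, 9.80, 9.20 and 9.37 in controls and 8.90, 8.42 and 8.19 in inflamed colon. The groups did not overlap, although inflamed replicate 1 lay just under the lowest control. The difference was -0.74 ± 0.24, a 1.68-fold lower level, and it did not pass (adjusted p = 0.0887 by limma, 95% interval -1.31 to -0.18). Its adjusted p ranged from 0.0522 to 0.470 over the 20 alternatives, and the difference was negative in each. The difference between Hist1h1b and Hist1h1c was not tested.

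The other 3 H1 genes did not pass. Hist1h1a, encoding H1.1, had a difference of 0.26 (95% interval -0.10 to 0.61). Hist1h1d, encoding H1.3, was dim and had a difference of -0.06 (interval -0.30 to 0.18). Hist1h1t, the testis linker histone, was dim as well, between 4.34 and 4.43 in controls and between 4.26 and 4.34 in inflamed colon.

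**Figure D2:**
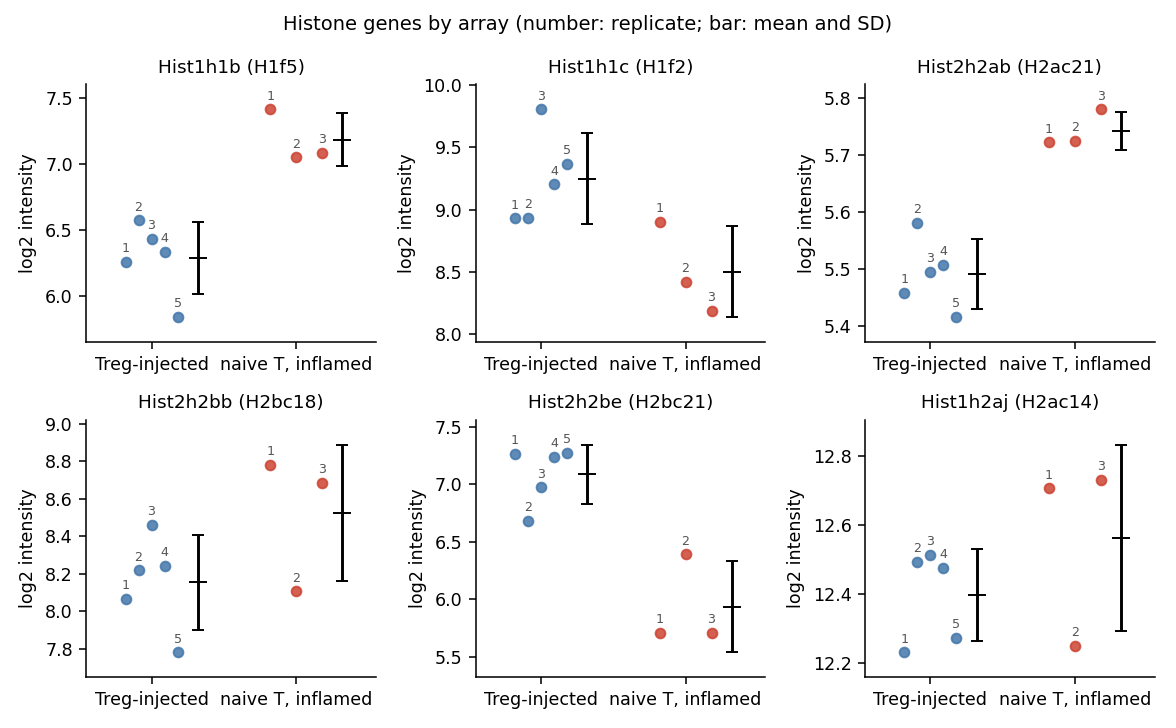
Log2 intensity of 6 histone genes on every array, with the replicate number beside each point and the mean and SD of each group as a bar; each panel has its own scale. Inflamed points lie above all controls for Hist1h1b and Hist2h2ab and below all for Hist2h2be and Hist1h1c, while for Hist2h2bb and Hist1h2aj inflamed replicate 2 lies among the controls.

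Among the H2A genes, Hist2h2ab (H2ac21), a gene of the small Hist2 cluster, rose by a small and uniform amount. Control replicates read 5.46, 5.58, 5.50, 5.51 and 5.42 on the log2 scale, and inflamed replicates 5.72, 5.72 and 5.78. All 3 inflamed values lay above the controls, and the spread was narrow in both groups, with an SD of 0.06 in controls and 0.03 in inflamed colon. These values were not far above the median intronic control, at 4.92 to 5.11 over the arrays, so part of the signal may be background. The difference was 0.25 ± 0.04, a 1.19-fold higher level (adjusted p = 0.00807 by limma). It passed in 19 of 20 alternatives, several of which left the difference unchanged, with adjusted p from 0.0051 to 0.193.

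The other 8 H2A genes did not pass, with differences from -0.14 to 0.17. Hist1h2aj, the brightest H2A probe set although RefSeq lists the gene as a pseudogene, read 12.23 to 12.51 in controls and 12.71, 12.25 and 12.73 in inflamed replicates 1 to 3. Its difference was 0.17 (95% interval -0.13 to 0.47). Hist1h2af, a coding H2A gene, read 11.77 to 12.12 in controls, 12.21, 11.90 and 12.25 in inflamed colon, with a difference of 0.15. In both genes inflamed replicates 1 and 3 lay above all controls and inflamed replicate 2 among them. Hist2h2aa1 and Hist2h2aa2 are near-identical copies, so their probe sets may share signal. Their differences were -0.13 and -0.14, and neither passed. A brighter probe set annotated to both genes was at -0.38, and another annotated to Hist1h2al as well was at -0.37. Neither of these passed, and inflamed replicate 2 was the lowest array on each, at 7.37 and 7.39. Closely related H2A transcripts may also give signal on a probe set annotated to 1 gene, and this was not tested.

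Among the H2B genes, Hist2h2be (H2bc21) fell and none of the other 8 passed. Hist2h2be encodes H2BE, an H2B form known from olfactory neurons, and its gene can give polyadenylated transcripts besides the stem-loop form. Control replicates read 7.26, 6.68, 6.97, 7.24 and 7.27 on the log2 scale, and inflamed replicates 5.71, 6.39 and 5.71. All inflamed values lay below the controls, with inflamed replicate 2 nearest to them. The difference was -1.15 ± 0.21, a 2.22-fold lower level (adjusted p = 0.0121 by limma), and it was the only one of the 28 past a 2-fold change. Without inflamed replicate 1 it was -1.04, with an adjusted p of 0.0515, and over the 20 alternatives the adjusted p ran from 0.0028 to 0.277. In the RefSeq gene order H2ac20 lies between Hist2h2ab and Hist2h2be, so genes of one small cluster moved in opposite directions.

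Hist2h2bb (H2bc18), whose promoter holds the octamer 48 bases before the start, gave 8.06, 8.22, 8.46, 8.24 and 7.78 in controls and 8.78, 8.10 and 8.68 in inflamed colon. Inflamed replicates 1 and 3 lay above all controls and inflamed replicate 2 did not. The difference was 0.37 ± 0.20 (adjusted p = 0.263 by limma), and 0.58 without inflamed replicate 2 (adjusted p = 0.0793, within a range of 0.0642 to 0.567 over the 20 alternatives). The octamer lay in 5 of the 7 H2B promoters. The remaining H2B genes had differences from -0.15 to 0.20, and only Hist1h2bh among the 9 was dim.

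All 3 H3 and both H4 genes with a probe set of their own were dim, so they say little about these classes. Hist1h3c, with the largest difference of the H3 genes, was at 0.18 (95% interval -0.07 to 0.43), and Hist1h3f, the brightest, at 0.13. For H4, Hist1h4a had a difference of 0.10 and Hist1h4b of 0.04. Hist1h4b had a second probe set, with a difference of 0.02, which did not pass either.

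Histone genes of the male germ line are described apart, since they are normally made in testis. Hist1h2aa and Hist1h2ba, the testis H2A and H2B, were not dim. Closely related histone transcripts may give signal on their probe sets, and this was not tested. Their levels therefore do not show expression of the testis genes. Hist1h2aa read 7.05 to 7.30 in controls and 7.31, 6.85 and 7.43 in inflamed colon, with a difference of -0.0034 ± 0.13. Hist1h2ba read 6.81 to 7.04 in controls and 6.85, 6.54 and 6.86 in inflamed colon, with a difference of -0.15 ± 0.09. Neither passed. Of 7 germ cell markers 0 rose and 0 fell by limma, against 8.06% and 5.04% of all genes. At an unadjusted p under 0.05 there were 0, against 28.5%. Of the 7, 5 were dim, against 36.1% of all genes, among them the germ cell RNA helicase Ddx4 at 3.46 on all 5 control arrays. Prm1 and Prm2 were not dim, at means of 4.88 and 6.25 in controls and 4.94 and 6.21 in inflamed colon. All inflamed Prm1 values lay above the controls. The largest differences were -0.08 for Sycp3 and 0.06 for Prm1. The list mean ran from 4.18 to 4.27 in controls and from 4.21 to 4.23 in inflamed colon.

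The level of the histone genes also varied from array to array within each group. Set against each gene's control mean, the median of the 28 genes was -0.09 on control replicate 1, 0.01 on replicate 2, 0.07 on replicates 3 and 4 and -0.09 on replicate 5. On inflamed replicates 1, 2 and 3 it was 0.12, -0.03 and 0.12. The median of all genes stayed between -0.02 and 0.00 on every array. Inflamed replicates 1 and 3 thus lay above the range of the control medians, and inflamed replicate 2 lay inside it. Of the 28 genes, 6, 14, 23, 23 and 8 lay above their control mean on control replicates 1 to 5, against 42.1%, 47.7%, 52.4%, 44.1% and 49% of all genes. On inflamed replicates 1 to 3 it was 21, 12 and 21 of the 28, against 47.1%, 42.6% and 48.7% of all genes. Inflamed replicate 2 held the lowest of the 3 inflamed values for 18 of the 28 genes, against 45.4% of all genes. Values of near-identical histone genes are not independent of each other.

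**Figure D3:**
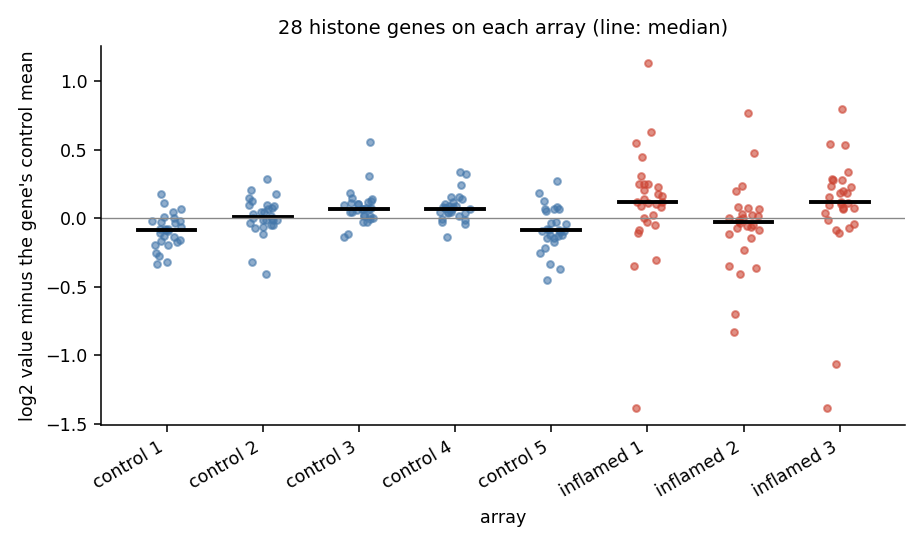
Each of the 28 histone genes on each array, as its log2 value minus its control mean; black lines are medians. The medians are 0.12 on inflamed replicates 1 and 3, -0.03 on inflamed replicate 2, and between -0.09 and 0.07 on controls.

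The 37 probe sets annotated to several genes show the bulk of the cluster, without separating its members. Over all 65956 transcript clusters 7.53% passed, 4.39% higher and 3.13% lower. Of the 37 shared histone probe sets 3 passed (8.11%), 2 higher and 1 lower, with a median difference of -0.01, against -0.02 over all transcript clusters. At an unadjusted p under 0.05 there were 11 (29.7%), against 22.5% of all transcript clusters. For H4, all 10 shared probe sets were annotated to the same 13 genes. Their differences ran from -0.34 to 0.40, 4 of them positive, and 0 passed by limma, with 3 at an unadjusted p under 0.05 against the same 22.5%. Probe sets with the same genes thus gave opposite signs.

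Of 7 shared probe sets with H3 genes, the 6 annotated to H3 alone had positive differences, from 0.11 to 0.33, against 41.5% of all transcript clusters. The other, annotated to Hist1h2ad as well, was dim and at -0.08. The 3 H3 genes with a probe set of their own were dim too. The 3 H3 probe sets annotated to Hist1h3b, Hist1h3c, Hist1h3d, Hist1h3e, Hist1h3f and the Hist2 H3 genes were at 0.22, 0.29 and 0.33, and none of these passed. One annotated to Hist1h3a, Hist1h3g, Hist1h3h and Hist1h3i passed at 0.31 ± 0.08 (adjusted p = 0.0493 by limma). It read 4.50 on average in controls, near background, and it did not pass when any of the 8 arrays was left out, with adjusted p from 0.0508 to 0.116. The other 2 probe sets of these 4 genes were at 0.11 and 0.16.

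For H2A, 7 probe sets shared the same 10 Hist1 genes, with differences from -0.07 to 0.59. The one that passed was at 0.59 ± 0.13 (adjusted p = 0.0317 by limma), with 5.12 to 5.62 in controls and 5.94, 6.22 and 5.87 in inflamed colon. It did not pass without control replicates 1, 2 or 4 or inflamed replicates 1 or 2, with adjusted p of 0.0701, 0.0735, 0.0601, 0.0844 and 0.0765, nor with the sex pattern of the arrays as a block (0.0640). That pattern was read from the Xist value, high on control replicates 3, 4 and 5 and on inflamed replicate 3, so the groups were not evenly split. Of 9 shared probe sets annotated to H2B alone, 2 had positive differences, against 41.5% of all transcript clusters, with a median of -0.05. Of the 9 H2B genes with a probe set of their own 7 had positive differences, against 44.8% of all genes, with a median of 0.14. This contrast was not tested. For H2B, a probe set shared by Hist1h2bc, Hist1h2be and Hist1h2bg was lower in inflamed colon. It read 10.90, 10.90, 11.23, 11.36 and 11.19 in controls and 10.59, 10.57 and 10.27 in inflamed colon. The difference was -0.64 ± 0.13 (adjusted p = 0.0276 by limma), the same direction as Hist2h2be. It did not pass without control replicates 3, 4 or 5 or inflamed replicates 1 or 3, with adjusted p of 0.0668, 0.0538, 0.0717, 0.0656 and 0.0751, nor with the sex pattern as a block (0.0544). A second probe set of the same 3 genes was at -0.01, so the fall was not seen in both.

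**Figure D4:**
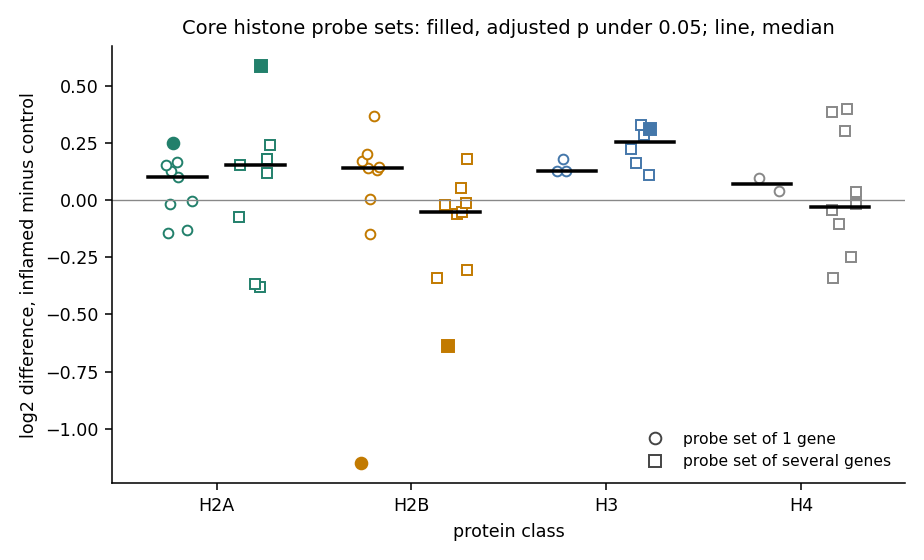
Log2 difference between inflamed and control colon for core histone probe sets of 1 gene (circles) and of several genes (squares), by class; filled symbols passed and lines are medians. The 6 shared probe sets annotated to H3 alone lie above 0 (1 mixed H2A and H3 set, at -0.08, is not drawn), while the 10 shared H4 probe sets, annotated to the same 13 genes, spread from -0.34 to 0.40.

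Genes that act on histone mRNA rose in part. Of 20 listed genes of histone transcription and 3' end processing 18 were measured. Of these 5 rose and 0 fell, against 8.06% and 5.04% of all genes, with a median difference of 0.23. Cpsf2, a subunit of the complex that cleaves the histone pre-mRNA, read 7.63 to 7.86 in controls and 8.32, 8.57 and 8.23 in inflamed colon, a difference of 0.61 ± 0.09 (adjusted p = 0.00508 by limma). Tut7, a uridylyltransferase that marks histone mRNA for decay, rose by 0.55 ± 0.10, and Eri1, the exonuclease that trims and degrades the stem-loop, by 0.52 ± 0.09. Casp8ap2 (FLASH), which links the U7 complex to the cleavage machinery, and Ccne1, the cyclin whose kinase activates NPAT, were the other 2 that rose, by 0.48 and 0.35. Slbp, the stem-loop binding protein, was at 0.11 ± 0.04 (adjusted p = 0.144 by limma), and Npat at 0.27 ± 0.16, raised mainly on inflamed replicate 2 (8.06, against 7.38 and 7.36). The count ran from 4 to 6 when single arrays were left out.

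Replication and mitosis genes rose more widely than the histone genes, in counts and medians. The difference between the lists was not tested, and the lists differed in brightness. Of the histone genes 10 of 28 were dim, against 0 of 31 S phase and 0 of 19 mitosis genes. Among the 18 histone genes not dim, 2 rose and 1 fell (16.7%, against 19.5% of all genes not dim), with a median of 0.14. Of 31 measured S phase genes 12 rose and 0 fell, against 8.06% and 5.04% of all genes, with a median difference of 0.32. Among the 19620 genes not dim, a closer match in brightness, 2359 rose and 1467 fell. Rrm2 and Rrm1, the subunits of ribonucleotide reductase, rose by 1.29 ± 0.17 and 0.97 ± 0.14, and Mcm3, of the replicative helicase, by 0.83 ± 0.19. The S phase count fell to 6 without control replicate 3, 5 without control replicate 4, 4 without inflamed replicate 1 and 7 without inflamed replicate 3, and to 6 with low values raised to the overall median. It was 14 with each array centred on its median and 16 with dim genes left out or with array weights. Of 19 mitosis genes 12 rose and 0 fell, with a median of 0.57 and a count of 7 without inflamed replicate 1. Cenpe, a kinetochore motor, rose by 0.98 ± 0.11, Top2a, which untangles DNA, by 0.92 ± 0.14, and the checkpoint kinase Bub1 by 0.82 ± 0.13. These 6 genes were named for their large changes, so their separation from the controls follows largely from that choice. Over the lists, all 3 inflamed arrays lay above the controls for 21 of 31 S phase and 17 of 19 mitosis genes. This held for 3693 of all 30701 genes and for 3402 of the 19620 genes not dim.

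**Figure D5:**
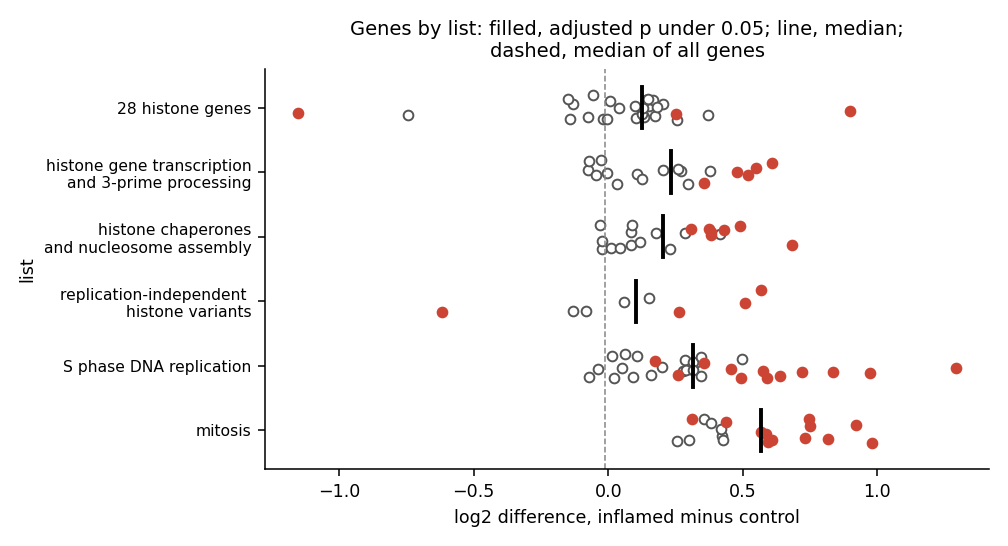
Log2 difference of each gene between inflamed and control colon for the 28 histone genes and 5 related lists; filled points passed, solid lines are list medians and the dashed line is the median of all genes. The medians are 0.13 for the histone genes, 0.23 for histone transcription and processing, 0.20 for chaperones, 0.10 for variants, 0.32 for S phase and 0.57 for mitosis.

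Chaperones carry histones from the cytoplasm onto DNA. Of 20 measured, 7 rose and 0 fell, against 8.06% and 5.04% of all genes, with a median of 0.20. The count was 4 without control replicate 4 or inflamed replicate 1. Nap1l1, which carries H2A and H2B, rose by 0.68 ± 0.07, Hat1, which acetylates new H4, by 0.49 ± 0.08, and Mms22l, a partner in reading new nucleosomes at forks, by 0.43 ± 0.09. Histone variants, which are mostly not tied to S phase and come from genes outside the clusters, went both ways. Of 8 measured, 3 rose and 1 fell, against the same shares of all genes. H2ax, the DNA damage variant with both stem-loop and polyadenylated mRNA, rose by 0.57 ± 0.14, H2az1 by 0.51 ± 0.10 and the centromere variant Cenpa by 0.26 ± 0.06. H2az2, the second gene for H2A.Z, fell by 0.62 on the log2 scale, from 8.35 to 8.63 in controls to 7.88, 7.95 and 7.72 in inflamed colon (SE 0.09, adjusted p = 0.00477 by limma), and it fell in each leave-out. The count of risen variants was 1 without control replicates 1, 2 or 4 or inflamed replicate 3, and 0 without inflamed replicate 1. It was also 1 with the sex pattern of the arrays as a block and with low values raised to the overall median.

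Cell type markers moved with the groups, beside all of these results. For comparison, 8.06% of all genes rose and 5.04% fell. All 7 T cell markers rose, with a list mean of 5.27 to 5.40 in controls and 6.54 to 7.29 in inflamed colon. Il7r, the interleukin-7 receptor, rose by 2.54 ± 0.24, and the T cell receptor chains Cd3e and Cd3g by 2.07 ± 0.18 and 1.99 ± 0.27. All 5 macrophage markers rose, with a list mean of 6.54 to 6.78 in controls and 7.89 to 8.33 in inflamed colon. Lyz2, the myeloid lysozyme, rose by 2.76 ± 0.08, the integrin Itgam by 1.502 ± 0.26 and the growth factor receptor Csf1r by 1.38 ± 0.08. Of 5 neutrophil markers 4 rose, with a list mean of 5.56 to 5.97 in controls and 8.18 to 9.58 in inflamed colon. The calgranulins S100a8 and S100a9 rose by 6.57 ± 0.50 and 5.14 ± 0.59, and the receptor Csf3r by 1.21 ± 0.21. For B cells 0 of 4 measured markers passed by limma, with 0 at an unadjusted p under 0.05; the largest differences were -0.04 for Cd79b and -0.03 for Pax5.

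Of 4 smooth muscle markers 3 fell, with a list mean of 10.85 to 11.45 in controls and 10.36 to 10.52 in inflamed colon; Des, Acta2 and Tagln, all contractile or cytoskeletal proteins, fell by 0.73, 0.73 and 0.68 on the log2 scale. Of 8 epithelial markers 1 rose and 2 fell, against 8.06% and 5.04% of all genes. Krt20, a surface keratin, rose by 0.58, the chloride exchanger Slc26a3 fell by 1.299 and the carbonic anhydrase Car1 fell by 0.29, with list means of 12.02 to 12.18 in controls and 11.88 to 12.13 in inflamed colon. These epithelial counts were lower under most leave-outs, at 0 or 1 higher and 1 or 2 lower. Of 4 crypt stem cell markers Lgr5 fell by 0.57, a call that among the leave-outs held only without inflamed replicate 2 and that was lost under either other scaling, with the floor and with the sex pattern as a block, and the next largest difference was -0.20 for Axin2. The part of these shifts in the histone results was not tested.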

How the data were processed

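Colon RNA was measured on 8 Affymetrix arrays, 5 Treg-injected and 3 naive T-injected. The authors deposited log2 intensities, 1 per probe set and array. The submitters' processing notes name Affymetrix Expression Console and RMA, a method that corrects background, equalises arrays and summarises probes. Their versions, like the array model and genome build, were not given in the sources used here. From the range of the values the scale is log2. Of 72688 probe sets, 65956 were transcript clusters and 6732 controls, the latter left out of every test.

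The annotation covered 32750 probe sets: 30604 with 1 symbol, 654 whose symbols resolved to 1 gene, and 1492 of several genes, left unnamed; 2078 symbols were updated through RefSeq (GRCm38.p6). Histone genes had symbols matching Hist1h to Hist4h, which were kept as the array gives them. Inflamed and control values were compared with limma 3.58.1 in R 4.3.3 (lmFit, eBayes, no covariate) over all 30701 genes, with Benjamini-Hochberg adjustment; "rose" and "fell" mean an adjusted p under 0.05. Shared histone probe sets were tested over all transcript clusters. Differences are inflamed minus control, with the SE after ±. The script was tested on simulated data. The number of arrays limits precision, since there are no counts or detection calls.

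The histone genes, the 13 related lists (151 genes) and the tests were chosen with earlier results of these data known. Named genes were every histone gene past the threshold, the brightest and the most changed per class, and the testis types (Hist3h3 was not measured on its own). Per list they were the 3 most changed past the threshold, or the 2 largest where fewer than 2 passed. The other histone genes named, Slbp, Npat, Casp8ap2, Ccne1, Epcam, Ddx4, Prm2 and the single shared probe sets described were added after their values were seen. Alternatives covered scaling, a floor, dim genes, probe set rules, naming, variance models, array weights, blocks for the replicate number and for the sex pattern of the arrays, and each array left out; testing all transcript clusters was added after the data were seen. Promoters came from RefSeq.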

Additional observations from a re-analysis of the deposited data

Results flagged for a closer look

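In 3 of the 28 histone genes, 1 control array lay far from the other 4 by Dixon's test at the 95% level. Chance alone flags about 1 gene in 20 where values are independent and untied. Here values can tie, as for Hist1h2ap at 4.1353 on control replicates 2, 3 and 4, so that rate may not hold. All 3 genes were dim, and control replicate 5 was the outlying array each time. Hist1h1t, the testis linker histone, was highest there at 4.43, against 4.36 for the next highest control. Hist1h2ap, an H2A gene, was lowest there at 3.96, against 4.10 for the next lowest control. Hist1h3f, an H3 gene, was lowest there at 4.17, against 4.36. None of the 3 passed the comparison between groups with all arrays or without control replicate 5.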

How the results depend on the processing

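Hist1h1b, Hist2h2ab and Hist2h2be passed in 18, 19 and 18 of 20 alternatives, and no other histone gene passed in any. Several alternatives left the differences of these 3 genes unchanged: the floor, leaving out dim genes, the probe set rules, the naming and the variance model. A pass there was likely from the start, so the 20 alternatives are not independent checks. With a replicate block, 0 histone genes were higher and 0 lower; 0 of all 30701 genes passed by limma, with 4918 at an unadjusted p under 0.05, 3 of them histone genes. Same-numbered arrays did not deviate together (r of -0.29, -0.05 and 0.07), so the numbers were not taken as pairs. Leaving out single arrays, 1 to 2 histone genes were higher and 0 to 1 lower, the lower counts without inflamed replicate 1; their median ran from 0.06 to 0.15. A floor at the overall median set the median to 0, since dim genes lie under the floor. The shared probe sets counted 0 to 1 higher and 0 to 1 lower when single arrays were left out, 4 higher with array weights, 0 and 0 with a replicate block, and 1 and 0 with the sex pattern as a block, where the H3 set passed and the H2A and H2B sets did not.

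Genes that did not pass and lay near 0 changed sign. Centred on array medians, Hist1h2ak was at 0.019 and Hist1h2aa at 0.033. With array weights Hist1h2ak was at 0.061, Hist1h2aa at 0.11 and Hist1h2bk at -0.057. With the sex pattern as a block Hist1h2aa was at 0.027, and with the replicate block Hist1h1d was at 0.029. Leaving out single arrays, the range was -0.10 to 0.089 for Hist1h2ak, -0.12 to 0.17 for Hist1h2aa, -0.052 to 0.089 for Hist1h2bk, -0.12 to 0.011 for Hist1h1d, -0.0095 to 0.12 for Hist1h4b and -0.24 to 0.0095 for Hist2h2aa1. Dim signals limit what the H3 and H4 genes can show.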
